A study of Drosophila melanogaster with 40 samples.

Results

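The structural cuticle protein genes of Drosophila melanogaster were followed through 12 RNA-seq groups of a study of the DNA modification N6-methyladenine (6mA) and the forkhead transcription factor Jumu in the early embryo. Members were every gene of the FPKM tables (fragments mapped to a gene, scaled to transcript length and to the mapped fragments of the libraries) whose FlyBase symbol starts with Cpr followed by a digit, or with Twdl. The rule found 96 genes of 17665: 70 Cpr genes and 26 Twdl genes. It used symbols only and no measured value. The embryonic groups at 3 h were jumu M-Z- (no Jumu from mother or embryo), jumu M-Z+ (eggs without maternal Jumu, fertilised by wild-type sperm) and wild type, then DMAD M- (eggs of mothers null for DMAD, the fly 6mA demethylase) and its own wild type. At 0.75 h jumu M-Z+ stood against wild type. A wild-type stage series covered 0.75, 3 and 6 h, and jumu mutant ovaries stood against wild-type ovaries. Apart from these RNA-seq groups, peak lists of 6mA came from wild-type embryos at 0.75, 3 and 6 h. A further 6mA list came from 6-h embryos with DMAD knockdown, made by injecting double-stranded RNA into w1118 embryos, and is distinct from DMAD M-. Lists of DNA pulled down with Jumu came from wild-type embryos at 0.75 and 6 h. Wild-type embryos came from the w1118 strain, and the jumu alleles were made with CRISPR. Each of the 12 groups had 2 libraries, but the tables hold 1 FPKM value per gene and group. No difference reported here therefore has a replicate check, an error or a p-value. A gene was counted as changed when log2(FPKM + 1) differed by at least 1 between groups, and the share of all listed genes that did so is given for each comparison and direction. The pseudocount makes this difference smaller than the true one for genes of low FPKM.

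The insect cuticle is built from chitin fibres and proteins that the epidermis secretes at its outer surface. Proteins of the Cpr family carry the Rebers-Riddiford (RR) consensus, a stretch that binds chitin. Tweedle (Twdl) proteins form a separate family of cuticle proteins without that consensus. They are best known from Tubby, a dominant allele of TwdlD that makes larvae and pupae short and stout. In the fly, cuticle protein genes are known for activity late in embryogenesis, when the first larval cuticle is laid down, and again before each moult. All of the groups studied here lie well before that time or are ovaries.

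The members are small and lie close together. Their median gene length was 1090.5 bp, against 2162 bp over 13987 protein-coding genes and members of the dm6 annotation, and 69 of the 96 lay in 16 clusters with gaps of at most 10 kb. The largest held 12 Tweedle genes on chromosome arm 3R (chr3R:26619118-26641054), with no other protein-coding gene among them. TwdlU is annotated as a pseudogene. Several copies are so alike that reads could have been shared between them. The coding sequences of Cpr65Ax1 and Cpr65Ax2 were identical over 306 bases, Cpr67Fa1 and Cpr67Fa2 matched at 96.5% of aligned positions, and TwdlB and TwdlL at 92.8%. In addition, 19 members overlap another annotated gene (Cpr51A, Cpr57A, Cpr64Ab, Cpr67Fb, TwdlY and TwdlZ among those described here), and the strand of the RNA-seq libraries is not given in the sources used here.

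Promoter sequences are shown for 8 of the 10 most highly expressed members, because the members share a core promoter element that the rule did not use. Each stretch runs from 60 bases before the annotated start of the gene to 20 bases after it, in dm6 (NCBI Release 6), 5′ to 3′ on the strand of the gene. TATAAA, the core of the TATA box, is in capitals. The 5 Tweedle stretches lie at chr3R:26619058-26619137 (plus strand, TwdlM), chr3R:26623524-26623603 (minus strand, TwdlB), chr3R:26625633-26625712 (minus strand, TwdlL), chr3R:26631809-26631888 (plus strand, TwdlN) and chr3R:26621345-26621424 (minus strand, TwdlP). The 3 Cpr stretches lie at chr3L:7086589-7086668 (minus strand, Cpr65Ea), chr3L:6139955-6140034 (minus strand, Cpr65Av) and chr3L:21300520-21300599 (plus strand, Cpr78Cc).
TwdlM: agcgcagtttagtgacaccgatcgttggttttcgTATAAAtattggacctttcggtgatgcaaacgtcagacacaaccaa
TwdlB: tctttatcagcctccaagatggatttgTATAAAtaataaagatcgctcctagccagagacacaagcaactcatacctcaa
TwdlL: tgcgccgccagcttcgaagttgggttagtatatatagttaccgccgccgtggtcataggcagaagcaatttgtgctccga
TwdlN: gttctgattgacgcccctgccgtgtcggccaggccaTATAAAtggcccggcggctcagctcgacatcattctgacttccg
TwdlP: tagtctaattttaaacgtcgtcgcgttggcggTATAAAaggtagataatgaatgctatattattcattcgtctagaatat
Cpr65Ea: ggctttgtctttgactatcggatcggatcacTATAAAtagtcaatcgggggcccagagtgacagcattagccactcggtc
Cpr65Av: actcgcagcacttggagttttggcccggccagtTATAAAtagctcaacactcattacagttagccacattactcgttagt
Cpr78Cc: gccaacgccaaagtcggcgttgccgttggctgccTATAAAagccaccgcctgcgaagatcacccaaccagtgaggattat

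In 7 of these 8 stretches TATAAA began 24 to 33 bases before the start, and TwdlL lacked it. On the gene's own strand, TATAAA began 45 to 20 bases before the start in 54 of the 96 members (56.3%), against 1230 of 13969 promoters of protein-coding genes and members (8.81%). The families were alike in this, with 39 of 70 Cpr genes (55.7%) and 15 of 26 Tweedle genes (57.7%). Of the 64 members at an FPKM of 1 or more in some group, 39 had it (60.9%), against 15 of the 32 that never reached that level (46.9%). TATAAA and other motifs were also searched on both strands of the window from 250 bases before to 50 bases after the start. TATAAA was in 72.9% of member windows and 45.8% of all windows. TCAGTT, a form of the Initiator, was in 30.2% and 26.1%. AACCGGTT (the palindromic Grainyhead motif, itself its own reverse complement) was in 0 member windows and 0.752% of all, and CAGGTAG (the Zelda motif) in 0 and 1.64%. No motif searched contains another. A match says only that the letters are there.

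Whole-series checks were as follows. The FPKM of jumu was 55.5 in jumu M-Z-, 103 in jumu M-Z+ and 71.8 in wild type at 3 h, and 73.9 in jumu M-Z+ against 98.7 in wild type at 0.75 h, so the RNA does not separate these genotypes. The gene of DMAD, Tet, stood at 3.41 FPKM in DMAD M- embryos and 1.49 in their wild type, so its RNA does not check that label either. In ovaries jumu was at 68.9 FPKM in the mutant and 68.0 in wild type. The titles of the ovary samples were checked with eggshell genes. In all, 14 eggshell genes of follicle cells summed to 36370 FPKM in jumu mutant and 74977 in wild-type ovaries, against 0.353 to 41.9 over the embryo groups. The tables do not list the same genes. Those of DMAD and of jumu at 0.75 h list only genes above 0 in both of their groups, and the ovary table only genes above 0 in wild type. They hold 53, 27 and 45 of the members, and a member absent from a table may have been at 0 in a group. The stage tables and the 3-h jumu table list all 96. The files give neither counts nor depths, and their low values form no steps of whole reads, so the depth behind each value is unknown.

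Across all groups, 64 members reached an FPKM of 1 in at least one group (42 of 70 Cpr genes and 22 of 26 Tweedle genes), and 32 did not. Cpr47Ea, Cpr65Ax1, Cpr65Ax2 and Cpr65Ay were at 0 in every group that lists them. With identical coding sequences, Cpr65Ax1 and Cpr65Ax2 are also genes whose reads a counter could fail to place. The highest 10 members in embryos were TwdlM, Cpr51A, TwdlB, Cpr65Ea, Cpr47Eg, TwdlL, Cpr65Av, Cpr78Cc, TwdlN and TwdlP, of which 5 are Tweedle genes. They carried 60.4% to 72.8% of the summed member FPKM in the 3 stage groups, in jumu M-Z+ and in wild type of the jumu series at 3 h. In DMAD M- embryos the share was 87.3%, in their wild type 44.6%, and in jumu M-Z- 21.7%. Levels were thus concentrated in a few genes wherever the families as a whole were high.

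**Figure D1:**
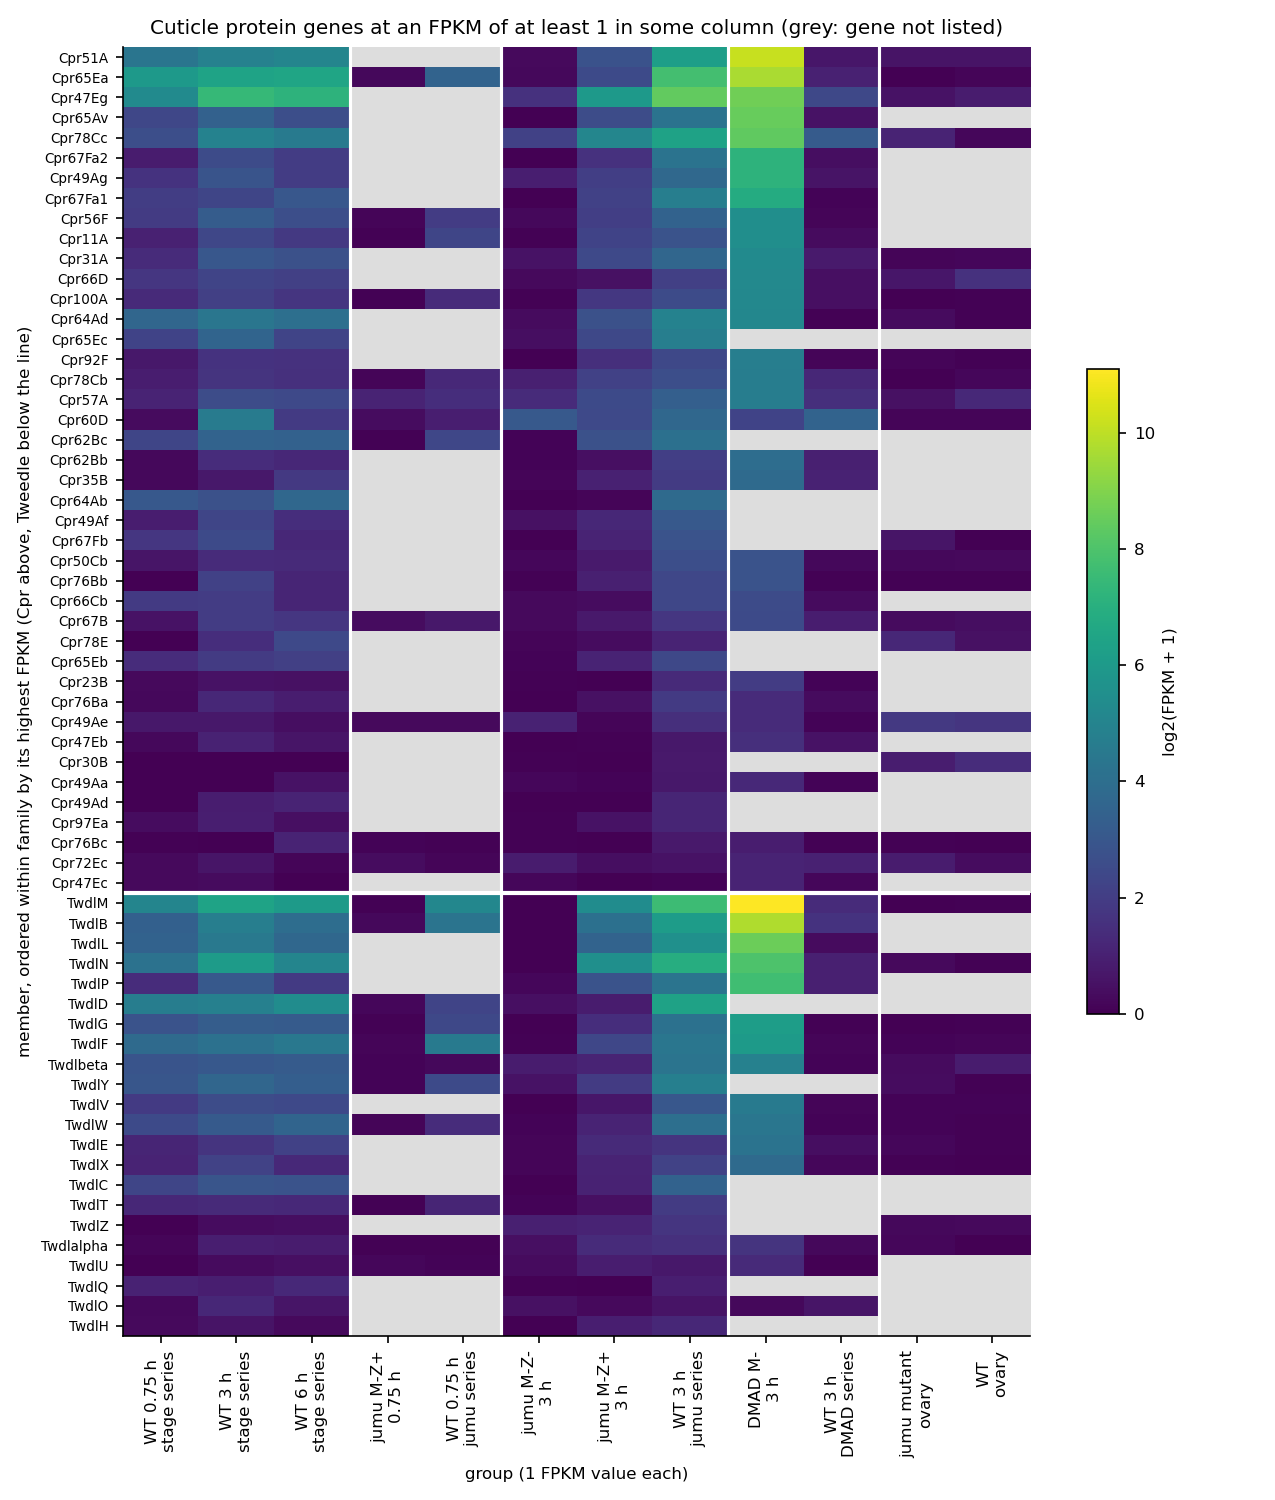
Level of the 64 members that reached an FPKM of 1 in some group. Rows are genes (Cpr genes above the white line, Tweedle genes below it, each ordered by highest FPKM), columns are the 12 groups with 1 value each, the colour is log2(FPKM + 1), and grey marks genes the table does not list. The DMAD M- column holds the brightest cells and the jumu M-Z- column is dark except for Cpr60D, Cpr78Cc and a few others.

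In wild-type embryos of the stage series, both families were present at 0.75 h, higher at 3 h and nearly level from 3 to 6 h. Summed over the 96 members the FPKM came to 330.4 in 0.75-h embryos, 795 in 3-h and 655 in 6-h embryos. The number of members at an FPKM of 1 or more was 37, 49 and 50 of 96. Over all listed genes 41.5%, 49.5% and 51.0% did so, so this count does not set the members apart. From 0.75 to 3 h, 24 members were higher by the fold rule and 0 were lower, against 12.4% of all genes higher and 14.4% lower. The median difference over members was 0.49, and over all genes 0. Of the 24, 17 were Cpr genes and 7 Tweedle genes, with median differences of 0.49 and 0.45 over each whole family.

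Cpr60D stood out in this series. It had 0.268 FPKM in 0.75-h embryos, 23.2 in 3-h and 2.65 in 6-h embryos, so it was high at 3 h only. The abundant members changed less and were already present at the first time. Cpr47Eg was at 39.1, 174 and 144, Cpr78Cc at 5.44, 29.7 and 21.8, and TwdlN at 17.3, 66.2 and 32.3 FPKM at 0.75, 3 and 6 h. TwdlM was at 32.6, 85.4 and 65.1 and Cpr65Ea at 60.7, 85.8 and 91.7 FPKM. Cpr76Bb, at 0 at 0.75 h, was at 3.44 and 1.24 FPKM later and completes the 5 largest differences.

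From 3 to 6 h, 3 members were higher and 5 lower by the fold rule, against 13.3% of all genes higher and 8.91% lower. The lower count changed its place against the background with the processing. Quantile normalization gave 1 member higher and 14 lower, against 11.0% and 10.4% of all genes, and a pseudocount of 0.1 gave 10 and 24, against 19.8% and 15.4%. The higher ones were low throughout: Cpr76Bc was at 1.18 FPKM at 6 h and 0 at 3 h, Cpr35B at 2.56 and 0.660, and Cpr78E at 4.46 and 1.71. The lower ones included Cpr60D, TwdlN and TwdlP (2.70 FPKM at 6 h, 7.45 at 3 h), with Cpr65Ec (3.858 and 10.99) and Cpr67Fb (1.34 and 4.55). Over all 96, 55 members had their highest value at 3 h, 27 at 6 h and 2 at 0.75 h, while 12 were at 0 at all 3 times.

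The wild-type 0.75-h embryo is known to make almost no RNA of its own, and ovaries held little RNA of these genes. Only 4 of the 45 members listed for wild-type ovaries reached an FPKM of 1, against 67.7% of all listed genes. The tables of the stage series and of the ovaries were made separately, so any difference between them also carries their processing. The member levels at 0.75 h (stage series) and in wild-type ovary were unrelated across the 45 genes (Spearman rho = -0.06, as a description). Muscle genes were present at 0.75 h as well. Of 14 markers of differentiated muscle, 12 reached an FPKM of 1 there and they summed to 511 FPKM, with 1 (Act79B) at 0. At 3 h 13 of the 14 did, summing to 1243 FPKM, and at 6 h 13, summing to 1004 FPKM. Tm1, a tropomyosin gene, gave 211, 392 and 228 FPKM of these sums. Mhc, the muscle myosin heavy chain, was at 11.95, 32.6 and 31.8 FPKM at the 3 times. In wild-type ovaries, where the members were low, 13 of the 14 muscle markers also reached an FPKM of 1. They summed to 590 FPKM there (Tm1 263), with Mhc at 19.2 FPKM. The share of such differentiated tissue in the member levels was not tested. In bulk samples like these, fewer cells of a type and less RNA per cell cannot be told apart.

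Maternal Jumu was removed to ask how the early embryo depends on it. At 3 h 87 of the 96 members had a lower value in jumu M-Z+ than in wild type and 86 in jumu M-Z-, most of them lowest in M-Z-. The member sum was 28.1 FPKM in jumu M-Z-, 317 in jumu M-Z+ and 1668 in wild type. In that order, 5, 38 and 55 members reached an FPKM of 1, against 46.5%, 53.3% and 57.8% of all listed genes. The order wild type above M-Z+ above M-Z- held for 59 of the 96 members. In jumu M-Z+, 0 members were higher and 42 lower than in wild type by the fold rule, against 6.94% of all genes higher and 6.92% lower. The median difference was -0.80 over members and -0.05 over all genes. In jumu M-Z-, 0 were higher and 51 lower than in wild type, against 11.0% and 12.2% of all genes, with median differences of -1.19 and -0.12. Both comparisons use the same wild-type value.

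Members of both families took part. In jumu M-Z+, 27 of 70 Cpr genes and 15 of 26 Tweedle genes were lower than in wild type, and in jumu M-Z- 33 and 18. In that wild type 36 Cpr and 19 Tweedle genes were at an FPKM of 1 or more. Only these could be lower by the fold rule, while the family medians below also include the others. The sum of the Tweedle genes was 4.496 FPKM in jumu M-Z-, 140 in jumu M-Z+ and 661 in wild type, and that of the Cpr genes 23.6, 176 and 1007 FPKM. No Tweedle gene reached an FPKM of 1 in jumu M-Z-, where TwdlZ was highest at 0.995. The Tweedle sum was thus 147-fold lower in jumu M-Z- than in wild type and the Cpr sum 42.7-fold lower. In jumu M-Z+ the Tweedle sum was 4.70-fold and the Cpr sum 5.71-fold lower than in wild type, while the median difference was -1.40 over the Tweedle genes and -0.73 over the Cpr genes. Sums, which a few genes carry, and medians thus order the families differently there.

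TwdlM had 0.0202 FPKM in jumu M-Z-, 40.6 in jumu M-Z+ and 192 in wild type, the largest difference of M-Z- from wild type (-7.56 in log2(FPKM + 1)). Cpr65Ea had 0.175, 4.66 and 216 FPKM in the same order. TwdlN had 0.0250, 45.8 and 121 FPKM. In log2(FPKM + 1), most of the difference of TwdlM and TwdlN lay between M-Z- and M-Z+, whereas Cpr65Ea was already low in M-Z+. In FPKM itself, the larger part for TwdlM and TwdlN lay between M-Z+ and wild type. Cpr47Eg, the highest member of the wild type, had 2.00, 62.7 and 348 FPKM, and TwdlB 0.0304, 16.3 and 69.9 FPKM. Values in jumu M-Z- were near 0 for all of them except Cpr47Eg.

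The 5 largest differences of jumu M-Z+ from wild type were in TwdlD, Cpr65Ea, Cpr64Ab, Cpr51A and Twdlbeta, of which Cpr65Ea is also among the 5 largest of jumu M-Z-. TwdlD, the Tubby gene, was at 0.357 FPKM in jumu M-Z-, 0.782 in jumu M-Z+ and 82.2 in wild type, a difference of -5.54 between M-Z+ and wild type. Cpr64Ab was at 0, 0.109 and 13.2 FPKM, Cpr51A at 0.220, 5.90 and 73.3, and Twdlbeta at 0.805, 1.14 and 18.4. TwdlD, Cpr64Ab and Twdlbeta were thus at 1.14 FPKM or below in both mutants, unlike TwdlM and TwdlN. Cpr51A and Cpr64Ab each overlap a gene on the opposite strand.

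Between the mutants, 0 members were higher and 30 lower in jumu M-Z- than in jumu M-Z+, against 2.79% of all genes higher and 7.16% lower. The 5 largest differences were in TwdlN, TwdlM, Cpr47Eg, TwdlB and TwdlL, which had 0.0237 FPKM in jumu M-Z-, 10.5 in jumu M-Z+ and 46.1 in wild type. All but Cpr47Eg lie in the 3R cluster. In all, 18 members had a higher value in M-Z- than in M-Z+, none by the fold rule. Cpr49Ae differed most of these (0.92 in log2(FPKM + 1)), with 1.12 FPKM in jumu M-Z-, 0.122 in jumu M-Z+ and 1.84 in wild type. Cpr60D had 7.69 FPKM in jumu M-Z-, 4.42 in jumu M-Z+ and 12.1 in wild type, and was the highest member in M-Z-. The others at an FPKM of 1 or more in jumu M-Z- were Cpr78Cc (3.47), Cpr47Eg (2.00), Cpr57A (1.597) and Cpr49Ae. Across the 96 genes, which share their lengths and wild-type sources, the order of levels in wild type was largely kept in jumu M-Z+ (rho = 0.86) and much less in jumu M-Z- (rho = 0.37).

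**Figure D2:**
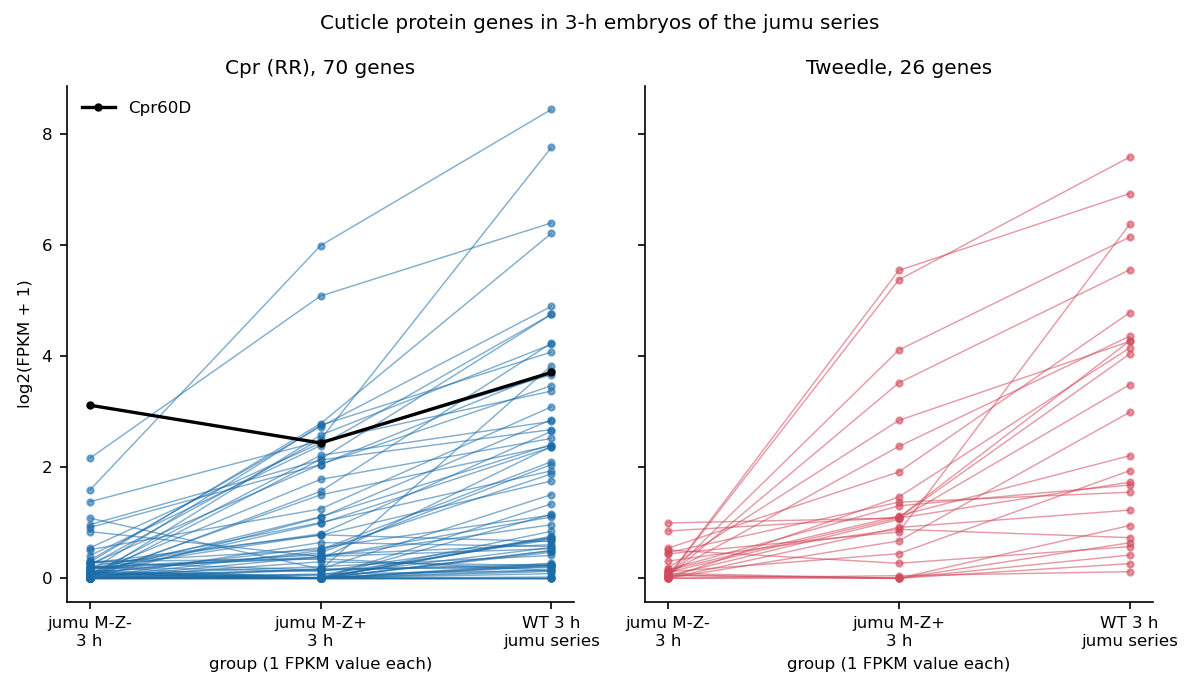
Each line is 1 member in the 3 groups of the 3-h jumu series (1 value per group), with log2(FPKM + 1) on the vertical axis, Cpr genes on the left and Tweedle genes on the right. Lines climb from jumu M-Z- through jumu M-Z+ to wild type in 59 of the 96 members, and Cpr60D (black) is higher in M-Z- than in M-Z+.

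Other genes of cuticle formation moved in part with the members. Of 36 further cuticle protein genes (Lcp, Ccp84, Edg, Vajk and similar symbols), 20 were lower and 0 higher in jumu M-Z- than in wild type, and 15 and 0 in jumu M-Z+. They summed to 5.99 FPKM in M-Z-, 156 in M-Z+ and 583 in wild type. Of 28 genes of chitin synthesis and cuticle assembly, 19 were lower and 0 higher in M-Z- than in wild type, but only 2 were lower and 3 higher in M-Z+. Serp, a chitin-modifying deacetylase, was at 0.235 FPKM in M-Z-, 21.6 in M-Z+ and 18.9 in wild type. Of 8 genes of sclerotization and pigment, 2 were lower and 0 higher than in wild type in each mutant. Regulators of epidermis and moulting went both ways. Of 12 of them, 6 were lower and 2 higher in M-Z-, and 1 was lower and 3 higher in M-Z+. In M-Z+ most genes of each list lay within the fold rule.

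Of the markers of other tissues, muscle genes differed most often. Of 14 muscle markers, 12 were lower and 0 higher in jumu M-Z- than in wild type, and 5 and 0 in jumu M-Z+. They summed to 527, 1025 and 1515 FPKM in M-Z-, M-Z+ and wild type, of which 486, 476 and 374 came from Tm1, a tropomyosin gene. Mhc was at 0.182, 25.2 and 31.7 FPKM in the same order, and no muscle marker was at 0. Of 15 genes of larval gut and fat body, 4 were lower and 0 higher in M-Z- than in wild type and 3 and 1 in M-Z+. Of 10 male germ line genes, 1 was lower and 0 higher in M-Z- and 2 and 0 in M-Z+, and of 6 adult eye genes 0 were lower and 1 higher in each. Maternal transcripts ran the other way. Of 9 of them, 8 were higher and 0 lower in M-Z- than in wild type and 5 and 0 in M-Z+, with sums of 1369, 540 and 263 FPKM. Of 15 early zygotic genes, 5 were lower and 1 higher in M-Z- and 1 and 1 in M-Z+, with sums of 1741, 2588 and 2999 FPKM. The part of embryo age or tissue composition in the member differences was not tested.

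At 0.75 h, jumu M-Z+ embryos also had less member RNA than wild type. The 27 listed members summed to 4.19 FPKM in jumu M-Z+ and 120 FPKM in wild type. By the fold rule 0 were higher and 14 lower, against 1.05% of all listed genes higher and 2.89% lower. Of the 14, 8 were among 11 listed Tweedle genes and 6 among 16 listed Cpr genes. Only 1 member, Cpr57A (1.12 FPKM in jumu M-Z+, 1.71 in wild type), reached an FPKM of 1 in the mutant, against 15 in wild type. Over all listed genes 73.3% did so in the mutant and 75.3% in wild type.

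TwdlM was at 0.0590 FPKM in jumu M-Z+ and 34.0 in wild type at this time. TwdlF had 0.0963 and 23.0 FPKM, and TwdlB 0.186 and 18.4. In the stage series at 0.75 h, TwdlM, TwdlF and TwdlB had 32.6, 13.1 and 9.43 FPKM. Cpr65Ea had 0.182 FPKM in jumu M-Z+ and 10.4 in wild type, and TwdlY 0.0656 and 4.56. The stage series at 0.75 h had Cpr65Ea at 60.7 FPKM, above the wild type of this table. Of the 69 members this table leaves out, 22 were at an FPKM of 1 or more at 0.75 h in the stage series, Cpr47Eg and TwdlN among them. Of 14 muscle markers, all listed, 10 were lower and 0 higher in jumu M-Z+ than in wild type. They summed to 340 and 670 FPKM, of which 291 and 293 came from Tm1, and Mhc was at 1.34 and 14.8. Of 9 maternal genes, 0 passed the fold rule (sums of 2520 and 2504 FPKM). The part of tissue composition was not tested.

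The DMAD comparison gave the highest cuticle protein levels of the study. The 53 listed members summed to 8023 FPKM in DMAD M- embryos and 46.0 FPKM in their wild type at 3 h. By the fold rule 41 were higher and 1 lower, against 18.5% of all listed genes higher and 4.06% lower. The median difference was 3.62 over members and 0.07 over all listed genes. Of the 41, 27 were among 37 listed Cpr genes and 14 among 16 listed Tweedle genes. In DMAD M- 45 of the 53 reached an FPKM of 1, against 10 in the wild type. Over all listed genes 78.4% did so in DMAD M- and 65.3% in the wild type.

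TwdlM was at 2190.5 FPKM in DMAD M- and 1.601 in its wild type, the largest difference of any member (9.72 in log2(FPKM + 1)). Cpr51A had 1148 and 0.616 FPKM, and Cpr65Ea 830.4 and 1.00. TwdlB had 866 and 2.12 FPKM, and TwdlL 388 and 0.247. Their wild-type values were all near or below 2 FPKM, which is far under those of the other wild types at 3 h. Cpr47Eg had 417 and 4.36 FPKM, Cpr65Av 367 and 0.455, Cpr78Cc 335 and 8.21, TwdlN 253 and 0.952, and TwdlP 208 and 0.957 FPKM. Most smaller members followed the same direction, such as Cpr67Fa1 (112 and 0.0806) and Cpr67Fa2 (145 and 0.333), which are near-identical copies. In all, 5 members had a lower value in DMAD M-. Only Cpr60D was lower by the fold rule, with 3.71 FPKM against 10.7 in wild type. Cpr60D was also the highest member of that wild type.

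The 43 members that the table leaves out include 15 that reached an FPKM of 1 in wild type of the jumu series, among them TwdlD (82.2 FPKM there), TwdlY (26.6) and Cpr65Ec (26.0). Their values in DMAD M- embryos are not known from this table.

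Genes around the members mostly moved likewise. Of 18 listed further cuticle protein genes, 13 were higher and 0 lower in DMAD M-, with sums of 3899 and 24.6 FPKM in DMAD M- and wild type. Of 26 listed chitin and cuticle assembly genes, 23 were higher and 0 lower, with sums of 672 and 24.2 FPKM. Serp was at 124 and 0.481 FPKM. All 7 listed genes of sclerotization and pigment were higher, among them Ddc, the dopa decarboxylase of cuticle hardening (24.6 and 0.0478 FPKM). Most listed genes of each of these lists were thus higher in DMAD M- by the fold rule. Regulators of epidermis and moulting were so less often, with 4 of 10 listed genes higher and 0 lower.

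Some other gene lists differed strongly between the same groups, and some did not. All 15 early zygotic genes were lower by the fold rule in DMAD M-, with sums of 256 FPKM in DMAD M- and 3893 FPKM in wild type. In the wild-type stage series this list summed to 12.5, 4149 and 427 FPKM at 0.75, 3 and 6 h. Of 14 muscle markers 13 were higher and 0 lower in DMAD M-, and none was at 0. They summed to 4148 and 262 FPKM in DMAD M- and wild type, of which 351 and 196 came from Tm1. Mhc was at 29.3 FPKM in DMAD M- and 0.159 in wild type, and Mlp60A, a muscle LIM protein gene, at 1682 and 11.5. Of 9 maternal genes 2 were higher and 0 lower, with nearly level sums of 577 and 586 FPKM. Of 12 listed genes of larval gut and fat body, 4 were higher and 0 lower. Of 4 listed male germ line genes 3 were higher and 1 lower, and of 4 listed adult eye genes 0 passed either way. Of 14 eggshell genes 0 were higher and 2 lower. Whether embryo age or tissue composition had a part in the member differences was not tested.

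**Figure D3:**
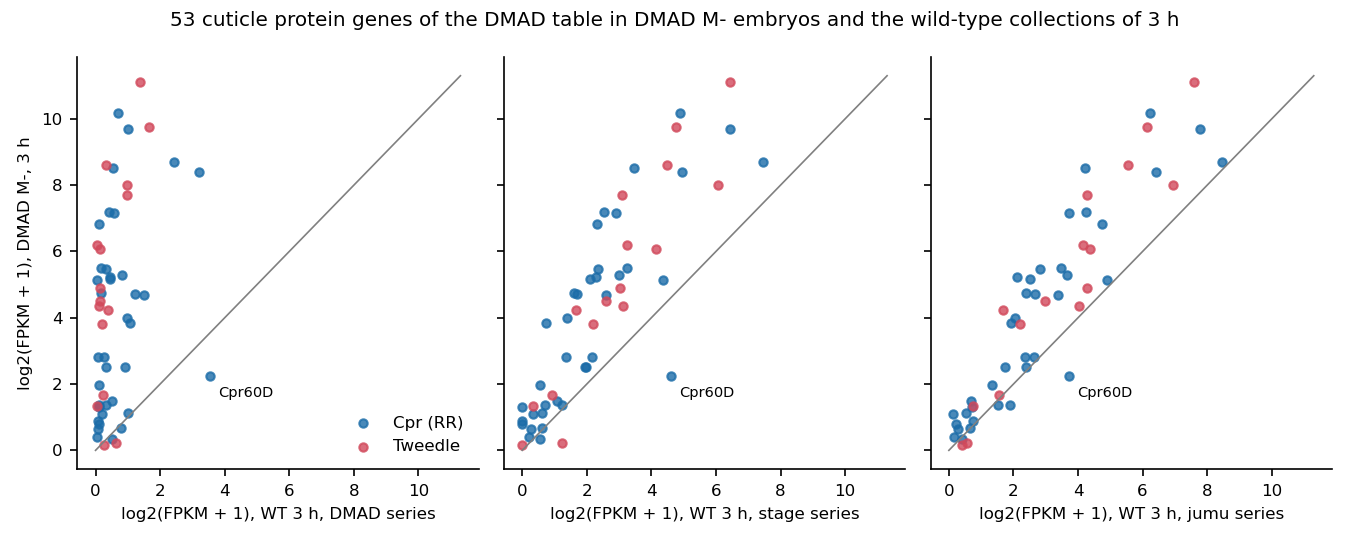
DMAD M- embryos (vertical axis) against each of the 3 wild-type collections of 3 h (horizontal axes), both in log2(FPKM + 1), for the 53 members the DMAD table lists, with Cpr genes in blue and Tweedle genes in red. Points rise almost vertically over the wild type of the DMAD series and lie nearer the grey line of equal values over the other wild types, with Cpr60D below the line in every panel.

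Wild-type embryos of 3 h were collected for 3 of the tables, and the members differed between these collections. The 53 members listed in all 3 summed to 1456 FPKM in the jumu series, 701 in the stage series and 46.0 in the DMAD series. For 37 of the 53 the values ran in that order, and for 43 the DMAD series was lowest. Setting jumu series against stage series, 17 of 96 members were higher and 0 lower by the fold rule, against 8.17% and 5.49% of all genes. For jumu series against DMAD series, 37 of 53 were higher and 0 lower, against 29.6% and 17.7% of all genes. For stage series against DMAD series, 33 of 53 were higher and 0 lower, against 27.2% and 17.6%. The tables were made separately, and the median of all genes at an FPKM of 1 or more in either group was itself shifted by 0.44 between jumu and DMAD series and by 0.33 between stage and DMAD series. The member medians on the same basis were 2.84 and 2.10.

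The 3-h comparisons with mutants therefore depended on which wild type was used. Against the wild type of the DMAD series, 22 of 53 members were higher and 1 lower in jumu M-Z+, where 31.1% of all genes were higher and 17.8% lower. In jumu M-Z- 0 were higher and 3 lower than in that wild type, against 24.4% and 15.4% of all genes. Against the wild type of the stage series the counts were 0 higher and 26 lower of 96 for jumu M-Z+, against 4.06% and 3.38% of all genes, and 0 and 47 for jumu M-Z-, against 7.54% and 8.36%. In DMAD M-, 27 of 53 members were higher and 1 lower than in wild type of the jumu series, against 23.5% and 19.1% of all genes. Set against wild type of the stage series, 33 were higher and 2 lower, against 26.4% and 20.9%. The member sum of DMAD M- (8023 FPKM) exceeded that of each wild type.

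Relative levels of the members were alike in collections of very different sums. Across members, the order in wild type of the jumu series matched that of the stage series (rho = 0.93, 96 genes). It also matched that of DMAD M- embryos (rho = 0.93, 53 genes), whereas DMAD M- and its own wild type were less alike (rho = 0.38, 53 genes). These are descriptions over genes of the same length in each column, not tests. Values near 0 in the wild type of the DMAD series limit the last one.

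Muscle markers ordered the collections in a similar way. Their sums were 1515 FPKM in the jumu series, 1243 in the stage series and 262 in the DMAD series. Of these sums Tm1 gave 374, 392 and 196 FPKM. In that order 13, 13 and 7 of the 14 markers were at an FPKM of 1 or more. Mhc was at 31.7, 32.6 and 0.159 FPKM in that order. Early zygotic sums differed less, at 2999, 4149 and 3893 FPKM. Maternal sums were 263, 377 and 586 FPKM.

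**Figure D4:**
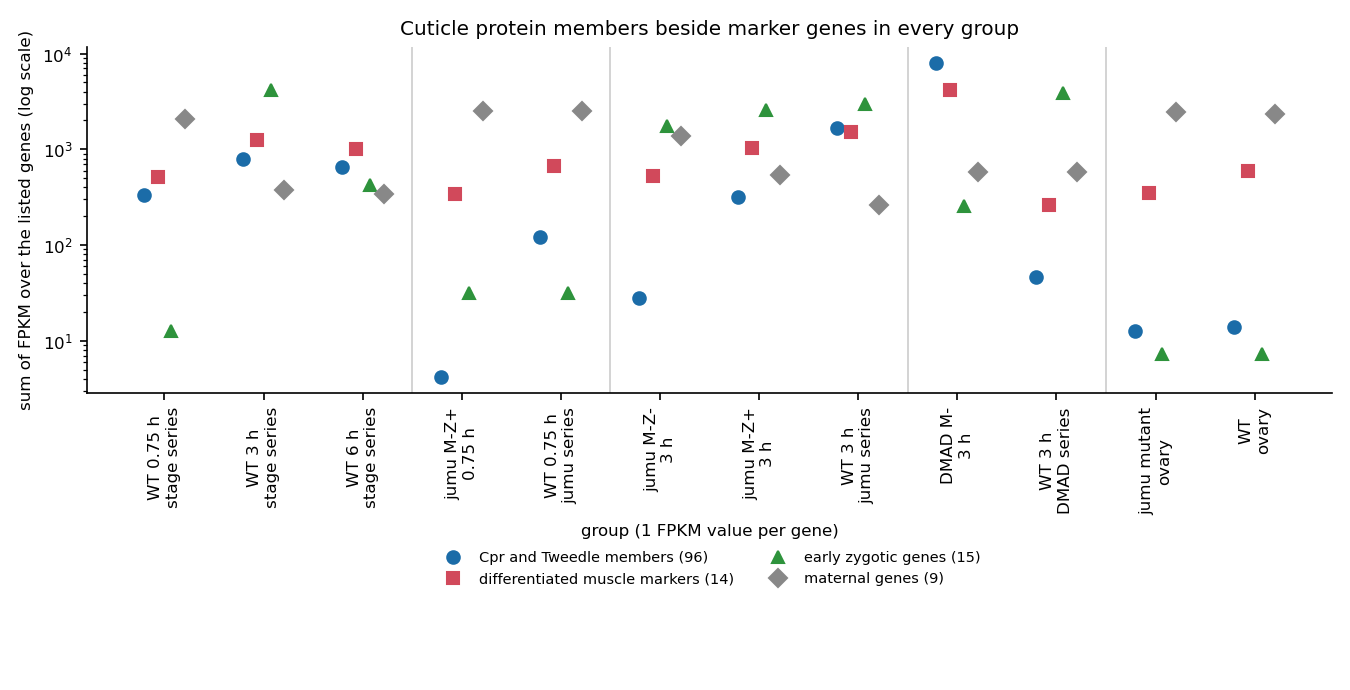
Summed FPKM (log axis) of the members and of 3 marker lists in each of the 12 groups (1 value per gene and group), over the genes each table lists. Among the 3-h groups, member sums run from 28.1 FPKM in jumu M-Z- to 8023 FPKM in DMAD M-. Muscle sums run from 262 FPKM in wild type of the DMAD series to 4148 FPKM in DMAD M-. Tm1 alone gave 196 of those 262 FPKM, and 486 of the 527 FPKM of jumu M-Z-.

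Neighbouring genes in a cluster had very different levels. Chromosome arm 3L carried 35 members, 3R 25, 2R 22, X 8 and 2L 6. In the 3R Tweedle cluster, in chromosome order, wild type of the jumu series at 3 h had TwdlM at 192, TwdlP at 18.3, TwdlB at 69.9, TwdlL at 46.1, TwdlO at 0.484, TwdlK at 0.200, TwdlJ at 0.0856, TwdlN at 121, TwdlH at 1.34, TwdlR at 0.557, TwdlS at 0.335 and TwdlD at 82.2 FPKM. High genes at both ends thus flanked a run of low ones that TwdlN interrupts. The stage series at 3 h gave the same 6 genes above 5 FPKM, from 7.45 (TwdlP) to 85.4 (TwdlM), and the other 6 at 1.36 or below. In DMAD M-, the listed low neighbours stayed low. TwdlO had 0.175 FPKM in DMAD M- and 0.549 in wild type, and TwdlS 0.111 and 0.188, beside TwdlM at 2190.5. The cluster summed to 1.12 FPKM in jumu M-Z-, 121 in jumu M-Z+ and 532 in wild type.

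**Figure D5:**
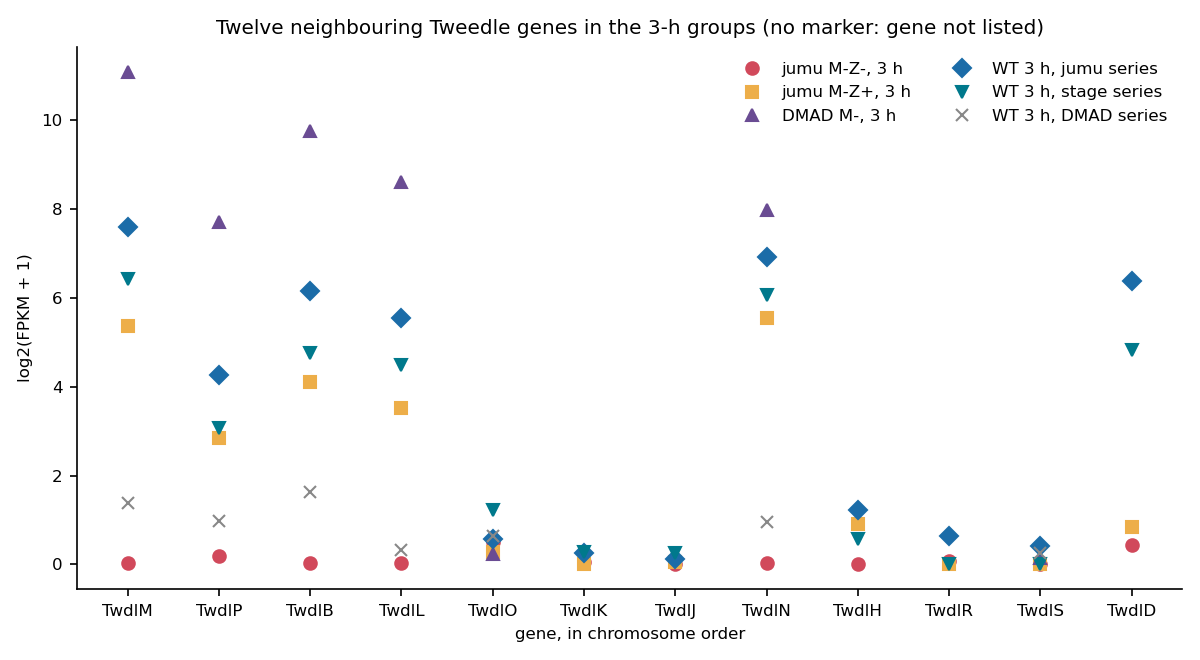
The 12 genes of the 3R Tweedle cluster in chromosome order, with log2(FPKM + 1) in the 6 groups of 3 h (1 value each) and no marker where the table does not list the gene. TwdlM, TwdlP, TwdlB, TwdlL, TwdlN and TwdlD are high in the wild types of the jumu and stage series, and TwdlO to TwdlJ and TwdlH to TwdlS stay at 1.36 FPKM or below in every group that lists them.

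Cpr clusters were as uneven. In the Cpr47E cluster, Cpr47Eg had 348 FPKM in wild type of the jumu series at 3 h and the other 6 genes had at most 0.618. Among the 7 Cpr65A genes, Cpr65Av had 17.6 FPKM and the others at most 0.796. The span of these 7 also holds 11 other protein-coding genes, which are not members and are not counted here. In the Cpr65E cluster Cpr65Ea had 216, Cpr65Ec 26.0 and Cpr65Eb 4.31 FPKM. A cluster of 3 genes at 67F was more even, with 26.0 FPKM for Cpr67Fa1, 17.9 for Cpr67Fa2 and 6.25 for Cpr67Fb. The values of the first pair carry the limit of near-identical copies.

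Ovaries held little cuticle protein RNA in either genotype. The 45 listed members summed to 12.6 FPKM in jumu mutant ovaries and 14.03 FPKM in wild type, and 3 and 4 of them reached an FPKM of 1. Over all listed genes 65.2% and 67.7% did so. By the fold rule 0 were higher and 0 lower, against 1.08% of all listed genes higher and 3.50% lower. No test stands behind these zeros, since each group has 1 value. Of the 45 members, 39 were below an FPKM of 1 in both groups, where a gene cannot pass the fold rule. With a pseudocount of 0.1, 9 members were higher and 9 lower, against 357 and 1379 of all 11482 listed genes.

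The members highest in ovary were not those highest in embryos. Cpr49Ae was at 2.58 FPKM in jumu mutant and 2.26 in wild-type ovaries, Cpr66D at 0.594 and 1.99, and Cpr30B at 0.831 and 1.63. Cpr57A had 0.392 and 1.41 FPKM, and Cpr78E 1.33 and 0.412. The sixth at an FPKM of 1 was Cpr78Cc, at 1.16 in the mutant and 0.134 in wild type. Cpr30B was at 0 in all 3 stage groups. TwdlM was at 0 and 0.0341 FPKM, Cpr65Ea at 0 and 0.127, and the highest Tweedle values were 0.277 (TwdlY, mutant) and 0.814 (Twdlbeta, wild type). Of 14 muscle markers 9 were lower and 0 higher in jumu mutant ovaries, and of 14 eggshell genes 8 and 0.

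Finally, the peak lists were read for 6mA or Jumu-bound DNA at these genes. The Jumu-bound lists come from fragmented genomic DNA of embryos captured in vitro by Flag-tagged Jumu from transfected cultured cells. They do not measure where Jumu sits in the embryo. Each list comes from 1 library, and a member was counted where the centre of a peak lay in the gene or within 1 kb of it. Peaks of 6mA marked 8 of the 96 members in 0.75-h embryos, against 22.7% of protein-coding genes and members. In 3-h embryos 2 members were marked, against 7.46%, and in 6-h embryos 1, against 5.05%. With knockdown of DMAD at 6 h 5 were marked, against 15.7%. Jumu-bound peaks marked 0 members at 0.75 h, against 4.69%, and 1 at 6 h, against 2.04%. No difference from genes at large was tested, and in several lists the members marked were too few to read. Members are also shorter (medians above), and longer genes have more room for a centre. The 9 marked members had a median length of 2479 bp and the other 87 one of 1045 bp. No Tweedle gene had a peak in any list.

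Of the genes with peaks, Cpr65Eb, beside the abundant Cpr65Ea, had the highest score. Its 0.75-h 6mA peak in an exon (chr3L:7087787-7088094) scored 923, on the scale of 10 times −log10 of the q-value. Cpr73D, a long gene, had 4 intronic 6mA peaks at 0.75 h (scores 35 to 441), 3 at 3 h and 1 with DMAD knockdown at 6 h. Its FPKM was 0.598 in DMAD M- and 0.743 in wild type, and below 1 everywhere. Obp73a and Ogdh overlap it on the opposite strand. Cpr11A had a 6mA peak in an exon at 0.75 h (score 553) and with DMAD knockdown at 6 h (score 72), and a further one upstream at 0.75 h (score 249). It was at 43.5 FPKM in DMAD M- and 0.243 in wild type, and at 0.0470 in jumu M-Z-, 3.65 in jumu M-Z+ and 6.09 in wild type at 3 h. Cpr49Ac had a 6mA peak in an exon at 0.75 h (score 604) and with DMAD knockdown (score 147). Its FPKM stayed at 0.562 or below. Cpr12A, Cpr49Ae and Cpr50Cb were marked at 0.75 h only (scores 257, 186 and 201). Cpr67B was marked with DMAD knockdown only (score 168, peak centre 329 bp downstream). Cpr49Ae apart, the members highest in ovary or among the top 10 of the embryo had no peak.

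Cpr30F was the one member in 5 of the 6 lists, including the Jumu-bound peaks at 6 h. The centres of all 5 peaks lay 539 to 569 bp beyond its 3′ end, and the peaks shared chr2L:9931531-9931934 (404 bp). That stretch is repetitive: 346 of its 404 bases are soft-masked as repeat in the reference genome. Its start recurs 359 bp further on, and the copies are shown with the shared 22 bases in capitals (plus strand, dm6, chr2L:9931531-9931572 and chr2L:9931890-9931931).
copy 1: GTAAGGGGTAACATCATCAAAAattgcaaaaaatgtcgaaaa
copy 2: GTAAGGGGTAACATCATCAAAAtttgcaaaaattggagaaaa

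The 22 bases occur 192 times in the assembled chromosomes on either strand, 184 of them on X. How reads from such copies were assigned was not tested, so the peaks at Cpr30F cannot be tied to this copy from the lists. Cpr30F was low everywhere. Its FPKM was 0 in jumu M-Z- and jumu M-Z+ and 0.409 in wild type at 3 h, 0, 0.214 and 0 at 0.75, 3 and 6 h in the stage series, and 0.0693 in jumu mutant and 0.0523 in wild-type ovaries.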

How the data were processed

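The authors removed ribosomal reads with Bowtie2, mapped the rest of the RNA-seq reads by STAR (dm6), and took FPKM from Cuffdiff over the 2 libraries of each group. The deposited tables hold 1 FPKM value per gene and group, with no spread, counts or depth. The submitters' processing notes also name TopHat2 and FastQC without a role. For peaks, the authors ran MACS2 against IgG (q of 0.05), and the deposited score is 10 times −log10 of the q-value. Gene symbols came from the annotation of Ensembl release 115, and sequences from NCBI Release 6, both dm6.

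The difference in log2(FPKM + 1) was computed over all genes listed in a table, with no filter, in Python 3.11.15 (pandas 2.3.3), and a gene was called at 1 or more in either direction. Tests need values per library, so none was run and there are no p-values. The code was checked on simulated data. Alternatives were a pseudocount of 0.1, an FPKM of at least 5, quantile normalization, another wild type, and stricter peaks.

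The members and marker lists were chosen with earlier results of these data known. Values are given for the 10 highest members in embryos, the 5 highest in ovaries, the 5 highest Tweedle genes, the 5 largest differences per direction and comparison, and members with peaks (for lists with more than 5, the 3 with most peaks). Other genes named were chosen after their values were seen. RNA-seq of zld overexpression and of DMAD knockdown was not analysed here. Groups come from GEO titles, which give the ovaries as such where another label says embryo.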

Additional observations from a re-analysis of the deposited data

How the results depend on the processing

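No paired analysis was possible because each table holds 1 value per group, and for the same reason no replicate could be left out. Of 74 counts under alternatives, 42 stayed within 1.5 times the value reported. Of 141 values of single genes, 133 stayed on their side of the fold rule, 5 fell below it and 3 turned round. The depth behind the FPKM values is unknown, so the precision of low values cannot be given.

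With a pseudocount of 0.1, 47 members were higher and 2 lower at 3 h than at 0.75 h (26.5% and 16.2% of all genes), and 10 and 24 at 6 h than at 3 h (19.8% and 15.4%). In jumu M-Z+ 68 were lower than in wild type at 3 h (25.7%), and in jumu M-Z- 82 (33.9%). In jumu M-Z- 4 were higher and 51 lower than in jumu M-Z+ (1669 and 3032 of 16668 genes). In DMAD M- 2 were lower (6.86%), and in jumu mutant ovaries 9 were higher and 9 lower (357 and 1379 of 11482 genes). Among genes at an FPKM of 5 or more in a group compared, 15 members were higher at 3 h than at 0.75 h (19.4%) and 0 higher at 6 h than at 3 h (26.5%). There, 33 were lower in jumu M-Z- than in wild type (14.5%), 10 lower in jumu M-Z- than in jumu M-Z+ (8.61%), and 4 lower in jumu M-Z+ at 0.75 h (2.05%), while no member of the ovary table was left. These counts rest on fewer genes. With quantile normalization, 1 member was higher and 14 lower at 6 h than at 3 h (11.0% and 10.4%), 1 higher in jumu M-Z- than in jumu M-Z+ (3.67%), 2 lower in DMAD M- (12.3%) and 1 higher in jumu mutant ovaries (1.66%).

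Against the wild type of the stage series, 26 members were lower in jumu M-Z+ (3.38%) and 2 in DMAD M- (20.9%). Against that of the DMAD series, 22 were higher and 1 lower in jumu M-Z+ (31.1% and 17.8%) and 3 lower in jumu M-Z- (15.4%), and the differences of Cpr51A, Cpr65Ea and Twdlbeta in jumu M-Z+ became 2.09, 1.501 and 0.97. Against that of the jumu series, 27 were higher in DMAD M- (23.5%). The cause was not tested.

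At an FPKM of 5, 27 Cpr genes counted as detected. With the peak centre inside the gene only, 1 member was marked by 6mA at 3 h, 0 at 6 h and 3 with DMAD knockdown, and 0 by Jumu-bound peaks at 6 h.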
